A study of Mus musculus with 2 samples.

Results

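The nuclear genes for the subunits of the mitochondrial respiratory chain were examined by DNase-seq in gastrocnemius, a muscle of the calf, of 10-day-old male B6CASTF1/J mice. DNase-seq sequences the ends of fragments that DNase I cuts from nuclei, so that a peak marks accessible chromatin and a footprint marks a short stretch protected from cutting within it. The genes were the protein-coding nuclear genes of GENCODE M21 with symbols that start with Nduf, Uqcr, Cox4 to Cox8 or Atp5, together with Sdha, Sdhb, Sdhc and Sdhd. They numbered 94 of 21853 protein-coding genes with a coding transcript on chromosomes 1 to 19, X and Y. Of these, 38 belonged to complex I, 8 to the Ndufaf group of complex I assembly factors, 4 to complex II, 8 to complex III, 18 to complex IV and 18 to complex V.

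The series held 1 group of 2 libraries, given as biological replicates 1 and 2, and every mouse had the same hybrid strain, sex and age. The labels name 3 males per sample and give both samples the same donor record, so differences between the replicates measure only the spread between these samples, which may be technical. Replicate 1 had 123255 peaks and 310961 footprints, and replicate 2 had 150088 peaks and 373154 footprints. Peak values are the deposited signal, scaled by the authors to library depth. The signal comes in whole steps, and if a step is taken as 1 tag, the median peak holds 134 tags in replicate 1 and 122 tags in replicate 2. Pairs of values below are for replicate 1 and then replicate 2. The tissue label was checked against markers: all 10 skeletal myofibre genes listed had a promoter peak in both replicates, among them Acta1 with 3.11 and 6.41. Of the other markers with a promoter peak in both replicates, there were 4 of 4 for endothelium, 4 of 4 for fibroblasts, 3 of 6 for heart, 1 of 3 for brown adipocytes, 0 of 4 for macrophages and 0 of 4 for erythroid cells. Nkx2-5 and Myh6, which define heart muscle, and Sox10, which defines Schwann cells, had no promoter peak in either replicate. In bulk tissue, accessibility in fewer cells and weaker accessibility in every cell cannot be told apart.

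Complexes I to IV of the inner mitochondrial membrane pass electrons from NADH and succinate to oxygen, with ubiquinone and cytochrome c as mobile carriers. Complexes I, III and IV pump protons, and complex V, the ATP synthase, uses their return to make ATP. Most subunits are encoded in the nucleus, and several complex IV subunits exist both as an isoform found in most tissues and as an isoform of heart and skeletal muscle or of another tissue. Nuclear respiratory factor 1 (NRF1), GABP of the ETS family, YY1 and the estrogen-related receptors (ERR) are known regulators of many of these genes.

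The muscle and ubiquitous isoforms differed in the CpG dinucleotides of their promoter sequences. The 180 bases from 150 before the outermost annotated coding start to 30 from it onwards are shown in mm10 for the 3 muscle isoforms of complex IV, each followed by its ubiquitous partner. Capitals mark bases inside a footprint in both replicates.
Cox6a2, chr7:128206358-128206537, minus strand: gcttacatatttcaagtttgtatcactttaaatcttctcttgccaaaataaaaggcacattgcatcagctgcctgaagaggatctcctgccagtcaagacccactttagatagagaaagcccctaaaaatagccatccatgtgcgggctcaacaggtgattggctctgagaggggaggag
Cox6a1, chr5:115348952-115349131, minus strand: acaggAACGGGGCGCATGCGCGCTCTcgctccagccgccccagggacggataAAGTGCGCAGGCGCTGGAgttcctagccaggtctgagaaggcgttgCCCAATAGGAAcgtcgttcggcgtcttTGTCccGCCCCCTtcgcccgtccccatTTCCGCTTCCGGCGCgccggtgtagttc
Cox7a1, chr7:30183994-30184173, plus strand: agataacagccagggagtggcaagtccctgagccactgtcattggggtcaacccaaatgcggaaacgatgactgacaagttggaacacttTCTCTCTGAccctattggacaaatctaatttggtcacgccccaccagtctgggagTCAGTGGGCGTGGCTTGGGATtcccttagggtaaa
Cox7a2, chr9:79759849-79760028, minus strand: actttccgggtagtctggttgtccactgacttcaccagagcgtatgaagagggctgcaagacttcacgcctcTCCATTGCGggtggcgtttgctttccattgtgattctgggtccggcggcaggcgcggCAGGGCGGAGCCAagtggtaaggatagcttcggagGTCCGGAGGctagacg
Cox8b, chr7:140900417-140900596, minus strand: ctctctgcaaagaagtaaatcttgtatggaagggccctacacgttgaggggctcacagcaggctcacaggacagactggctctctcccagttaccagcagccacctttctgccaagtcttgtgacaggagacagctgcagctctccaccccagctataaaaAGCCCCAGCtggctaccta
Cox8a, chr19:7217587-7217766, minus strand: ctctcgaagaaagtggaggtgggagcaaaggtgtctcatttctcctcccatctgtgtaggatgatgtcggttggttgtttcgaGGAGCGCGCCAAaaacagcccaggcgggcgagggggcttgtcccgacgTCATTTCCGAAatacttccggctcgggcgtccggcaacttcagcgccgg
Cox6a2 held 1 CpG dinucleotide in this stretch and no base footprinted in both replicates, against 22 CpG dinucleotides and 76 such bases in Cox6a1. Cox7a1 held 4 CpG dinucleotides and 30 footprinted bases, against 13 and 31 in Cox7a2. Cox8b held 1 CpG dinucleotide and 9 footprinted bases, against 16 and 23 in Cox8a. The footprinted bases of Cox7a1 and Cox7a2 were thus nearly equal in number. Cox6a2 and Cox8b also had lower promoter signal than their partners, and its part in the footprint counts was not tested. In Cox6a1 the first 2 footprinted runs, read from the left, hold the NRF1 matches described further on.

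Almost every respiratory chain promoter was open. An open promoter was one with a peak no more than 500 bp upstream or downstream of a coding transcript's start, and the highest peak there gave the promoter its value. Of the 94 genes, 90 (95.7%) were open in both replicates, beside 66.0% of all protein-coding genes. All 38 genes of complex I, all 8 assembly factor genes, all 4 of complex II and all 8 of complex III were open in both replicates, as were 16 of 18 of complex IV and 16 of 18 of complex V. The share was close to that of all genes with a CpG-rich promoter, of which 95.9% were open in both. A promoter was called CpG-rich when CpG dinucleotides, observed over expected from the base composition between 250 bp before and 50 bp after a coding start, reached 0.6. By this measure 77 of the 94 genes (81.9%) were CpG-rich, beside 53.9% of all genes.

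The respiratory chain promoters also carried higher signal than most open promoters. Their median value was 6.63 and 10.5, against 4.49 and 6.16 over all promoters open in the replicate. Among promoters open in both replicates, 68 of 90 respiratory chain genes (75.6%) exceeded these medians in both, beside 47.4% of all genes, and 18 (20.0%) were below them in both, beside 44.5%. CpG-rich promoters showed the same order with a smaller gap: 63 of 77 respiratory chain genes (81.8%) exceeded the medians in both replicates, beside 56.8% of all genes with a CpG-rich promoter. Replicate 2 had the higher value at 91.1% of the open respiratory chain promoters and at 82.0% of all open promoters, so gene sets were compared within a replicate. With 1 group of 2 libraries, no statistical test of these differences was made.

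**Figure D1:**
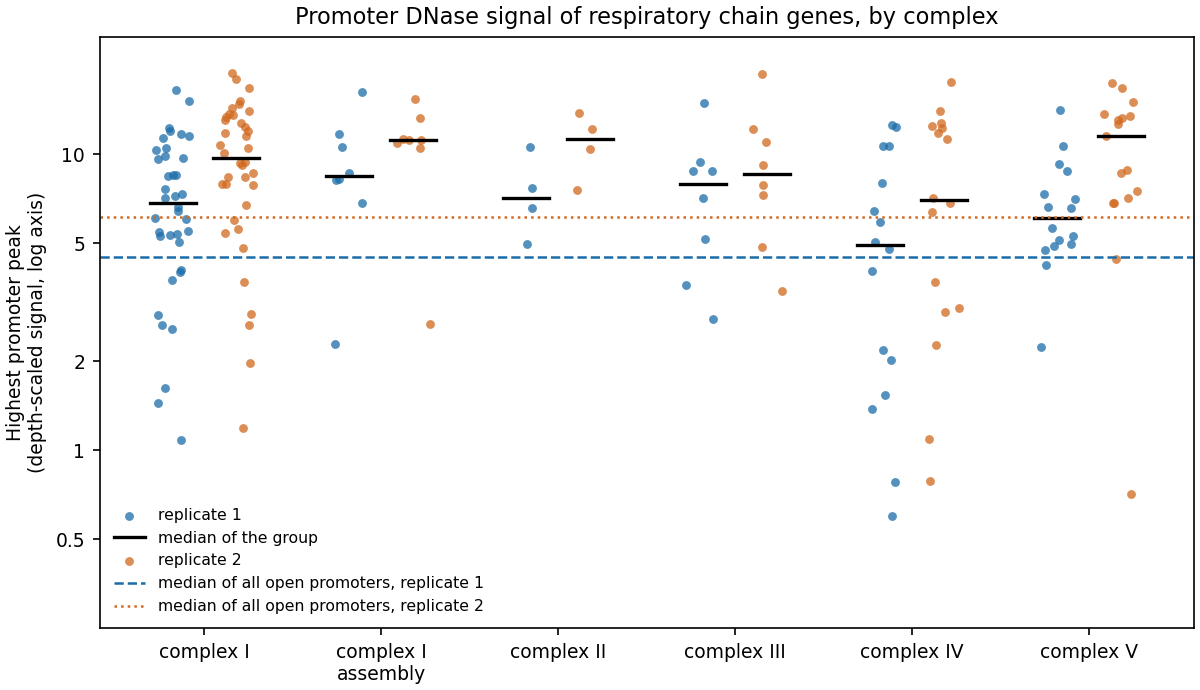
Highest promoter peak of each respiratory chain gene (points, depth-scaled signal on a log axis) by complex, in replicate 1 and replicate 2, with the median of each complex (black bars) and the median of all open promoters in each replicate (horizontal lines). Each complex has its median above the line of its replicate, and the lowest points are Cox6a2 of complex IV in replicate 1, at 0.598, and the second Atp5o of complex V in replicate 2, at 0.710.

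In complex I, which oxidises NADH and is the largest of the complexes, the median promoter value was 6.87 and 9.75. The 7 genes for the core subunits that bind the flavin or iron-sulphur clusters or line the ubiquinone site had a median of 5.51 and 10.8, and the other 31 genes had 7.25 and 9.41, so neither set was higher in both replicates. Ndufc1, a membrane-arm accessory subunit, had 16.5 and 14.8, and Ndufv3, an accessory subunit of the NADH-binding module, had 11.8 and 18.8. At the other end were Ndufa13, an accessory subunit, with 1.45 and 1.19, and Ndufa4l2, a relative of Ndufa4 induced by hypoxia, with 1.08 and 1.97. Ndufa13 lay far below the medians although its promoter was among the most CpG-rich of these genes, with an observed to expected ratio of 1.19, and although its window also held starts of Tssk6 and Yjefn3. The midpoint of its highest peak lay 337 and 290 bp downstream of its start. Ndufa13 was not open in both replicates in the stricter peak set. The same held when each peak counted only for the gene with the nearest coding start. Ndufa4, now regarded as a complex IV subunit in spite of its name, had 5.30 and 8.41.

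The assembly factor genes had a median of 8.45 and 11.2. Ndufaf4 had 16.3 and 15.4, and Ndufaf2 had 11.8 and 11.2. Ndufaf1, a scaffold for the early membrane arm, was lowest with 2.29 and 2.66. Ndufaf8 had 6.85 and 11.2 and was next lowest in replicate 1, while Ndufaf5 and Ndufaf6 were below it in replicate 2. Ndufaf1 was thus the exception in a set in which the other 7 genes all exceeded the median of all open promoters in both replicates.

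Complex II, succinate dehydrogenase, is wholly encoded in the nucleus and also serves the citric acid cycle. Sdha, the flavoprotein subunit, had 10.6 and 12.1. Sdhb, the iron-sulphur subunit, had 6.59 and 13.8. Sdhc and Sdhd, the membrane anchors, had 7.71 and 10.4 and then 5.00 and 7.56. All 4 exceeded the median of all open promoters in both replicates. Sdhb did so with an observed to expected CpG ratio of 0.36, in a range where all open promoters had medians of 1.06 and 1.21.

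Complex III takes electrons from ubiquinol to cytochrome c, and its median was 7.97 and 8.56. Uqcrfs1, the Rieske iron-sulphur protein, was highest in both replicates with 15.0 and 18.8. Uqcrq came next by the geometric mean of the replicates, with 8.80 and 12.2, but Uqcrc1 and Uqcrh were above it in replicate 1. Uqcrb, a small accessory subunit, had 2.78 and 3.45, and Uqcrc2, a core protein, had 3.62 and 4.87. The range from Uqcrb to Uqcrfs1 was wider than the difference between the replicates of either gene.

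In complex IV, cytochrome c oxidase, the median was 4.92 and 6.99, the lowest of the complexes in both replicates. Without the tissue-restricted isoforms described below, the remaining 11 genes had 6.46 and 11.8, so that the low median moved with those isoforms. By the geometric mean of the replicates Cox6a1 was highest, with 12.4 and 17.6, and Cox6c came next with 12.6 and 12.8, although Cox6c was above Cox6a1 in replicate 1. Cox7a2l, which is known for joining complexes into supercomplexes, had 5.04 and 7.12. Cox5a and Cox5b, subunits without a tissue isoform, had 10.7 and 12.2 for the one and 10.7 and 14.0 for the other.

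Complex V had a median of 6.10 and 11.6. Atp5mpl, a small proteolipid of the membrane part, had 14.1 and 13.5. Atp5g1, Atp5g2 and Atp5g3 encode an identical mature subunit c, the protein of the rotating membrane ring. Atp5g1 had 4.89 and 15.0, Atp5g2 had 10.7 and 17.5, and Atp5g3 had 4.97 and 8.85, so Atp5g2 was the highest of the 3 in both replicates while the other two did not keep a clear order. Atp5b, the catalytic beta subunit, had 6.63 and 16.8. Atp5l, subunit g, was lowest among the promoters open in both replicates with 2.24 and 4.41, and Atp5j, coupling factor 6, had 4.77 and 6.87. Atp5s, whose product is not a subunit of the enzyme in spite of its symbol, had 8.78 and 13.2.

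Some genes differed strongly between the replicates. Atp5g1, Ndufs8 and Atp5b had the largest log2 ratios of replicate 2 to replicate 1, and Ndufs8, a core iron-sulphur subunit, had 2.66 and 6.77. Ndufa10, Ndufa13 and Ndufc1 had the smallest, and Ndufa10 had 11.4 and 7.97. The values of Ndufs8 came from peaks placed differently in the replicates. The midpoint lay 53 bp downstream of a coding start in replicate 1 and 167 bp upstream of another in replicate 2. The part of this placement in the Ndufs8 ratio was not tested. The median log2 ratio was 0.50 over the respiratory chain genes and 0.44 over all open promoters.

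The 3 respiratory chain genes on the X chromosome were all below the median of open promoters. Ndufa1 had 2.87 and 3.70, Ndufb11 had 1.63 and 2.65, and Cox7b had 1.38 and 3.02. Their median was 1.63 and 3.02, against 6.85 and 10.6 for the respiratory chain genes on autosomes. Open promoters of all genes showed the same direction, with 1.76 and 2.69 on the X chromosome against 4.64 and 6.38 on autosomes. Of the 3 genes on the X chromosome 1 was CpG-rich, beside 76 of the 91 on autosomes. Among CpG-rich promoters of all genes, the medians were 2.76 and 4.24 on the X chromosome and 5.57 and 7.99 over all chromosomes. Males carry a single X chromosome, and its part and that of the CpG content in these values were not tested.

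The tissue-restricted isoforms of complex IV had lower promoter signal than their ubiquitous partners, the muscle isoforms included. Each of the 6 pairs that had a peak on both sides gave a lower value for the restricted isoform in both replicates. Cox6a2, the heart and skeletal muscle isoform of subunit 6a, had 0.598 and 1.09, with 95% Poisson intervals of 0.492 to 0.721 and 0.940 to 1.26. Cox6a1 had 12.4 and 17.6, with intervals of 11.9 to 12.9 and 16.9 to 18.2. The value of Cox6a2 was thus lower than that of Cox6a1 by 20.7-fold in replicate 1 and by 16.1-fold in replicate 2, or -4.19 ± 0.26 on the log2 scale (SD, n = 2). Intervals of this kind cover counting error only, since cut fragments may include copies made by PCR.

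Cox8b, the muscle isoform of subunit 8, had 1.54 and 2.27, against 6.46 and 12.5 for Cox8a, a log2 ratio of -2.26 ± 0.28 (SD, n = 2). Cox7a1, the muscle isoform of subunit 7a, stood closest to its partner, with 4.04 and 6.85 against 5.89 and 11.8 for Cox7a2, a log2 ratio of -0.66 ± 0.17 (SD, n = 2). The intervals of Cox7a1, 3.76 to 4.34 and 6.47 to 7.26, lay below those of Cox7a2, 5.55 to 6.26 and 11.3 to 12.3. In every one of these 3 pairs the gap between the isoforms was larger than the SD of the ratio between replicates.

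The isoforms of other tissues were also lower. Cox4i2, an isoform best known from lung, had 0.783 and 0.786, against 7.98 and 11.3 for Cox4i1, a log2 ratio of -3.60 ± 0.35 (SD, n = 2). Cox6b2, an isoform of testis, had 2.02 and 2.93, against 4.80 and 6.39 for Cox6b1, with a log2 ratio of -1.19 ± 0.09 (SD, n = 2). Ndufa4l2 had 1.08 and 1.97, against 5.30 and 8.41 for Ndufa4, with a log2 ratio of -2.19 ± 0.14 (SD, n = 2). Cox7b2 and Cox8c, both known from testis, had no promoter peak in either replicate. The muscle isoforms therefore did not all stand above the isoforms of other tissues. In both replicates Cox7a1 was higher than all of those, and Cox8b was lower than Cox6b2 but higher than Ndufa4l2 and Cox4i2. Cox6a2 was lower than Cox6b2 and Ndufa4l2 in both replicates. In the stricter peak set every muscle isoform was open in both replicates, and of the isoforms of other tissues only Cox6b2 was.

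**Figure D2:**
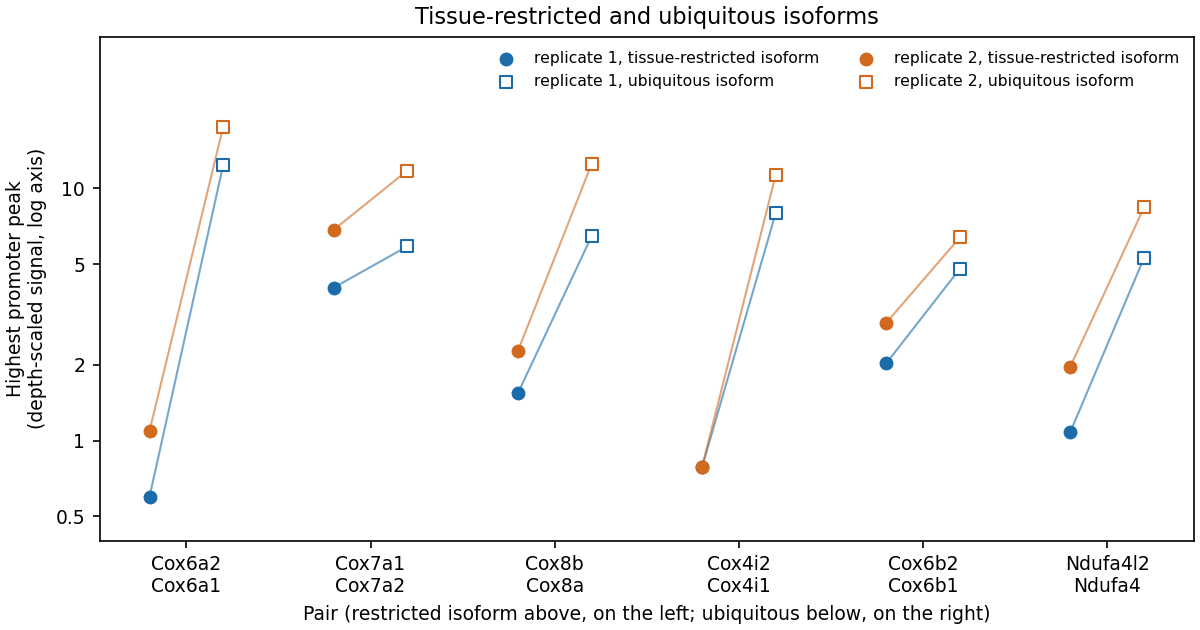
Highest promoter peak (depth-scaled signal, log axis) of each tissue-restricted isoform (filled circles, left) and its ubiquitous partner (open squares, right) in replicate 1 and replicate 2. All lines climb to the ubiquitous isoform, least for Cox7a1 with -0.66 and most for Cox6a2 with -4.19 as the log2 ratio.

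The restricted isoforms differed from the rest of the genes in CpG content as well. None of the 8 restricted isoforms was CpG-rich, against 77 of the other 86 genes. The observed to expected ratio was 0.14 in Cox6a2, 0.37 in Cox7a1 and 0.11 in Cox8b. Over all protein-coding genes, open promoters were more frequent at higher ratios: 7.34% of genes with a ratio under 0.2 were open in both replicates, beside 98.9% of genes with a ratio of 1 or over. Open promoters of like CpG ratio had lower medians than the muscle isoforms, apart from Cox6a2 in replicate 1. All open promoters under a ratio of 0.2 had medians of 0.704 and 0.731, beside which Cox8b had 1.54 and 2.27 and Cox6a2 had 0.598 and 1.09. Between 0.2 and 0.4 the medians were 1.06 and 1.21, beside which Cox7a1 had 4.04 and 6.85. The CpG ratio thus moved with the isoform contrast, and its part in it was not tested.

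**Figure D3:**
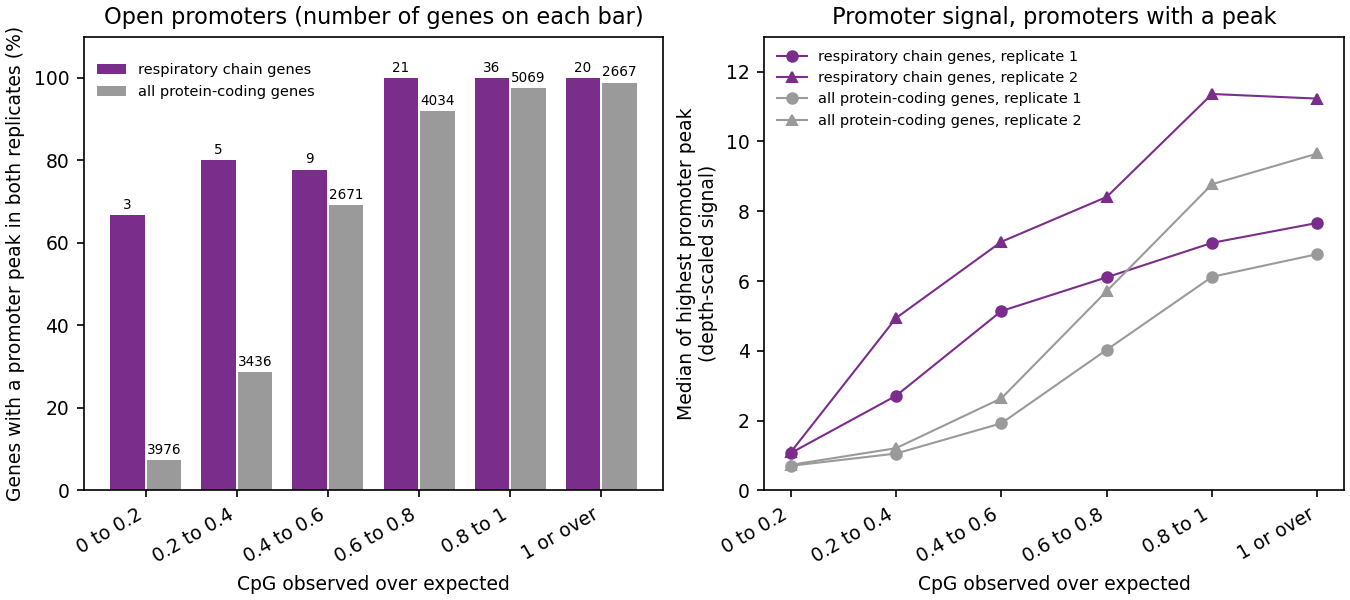
Left, the percentage of genes with a promoter peak in both replicates, by CpG observed over expected, for respiratory chain genes and all protein-coding genes, with the number of genes on each bar. Right, the median of the highest promoter peak over promoters with a peak, in each replicate. For all genes both are higher at each step of the CpG ratio, and between 0.8 and 1 the respiratory chain genes had medians of 7.09 and 11.4 against 6.12 and 8.77 for all genes.

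Peaks away from the promoter windows were looked for within 5000 bp of each coding start. There were 53 such sites found in both replicates, at 37 of the 94 genes, with median values of 1.13 and 1.23. At 3 genes a site exceeded the gene's own promoter in both replicates, and all 3 were restricted isoforms: Cox6a2, Cox8b and Ndufa4l2. At Cox6a2 the site lay 2004 bp upstream, in an intron of the neighbouring integrin gene Itgad, with 1.59 and 1.70. At Cox8b a site 2085 bp upstream had 1.71 and 2.44. At Ndufa4l2 a site 1966 bp upstream had 9.22 and 8.36. Cox7a1 had a site 2643 bp upstream, in an exon of the annotated gene Gm5113, with 2.76 and 2.49, which was under its promoter value. Which gene any of these sites acts on was not examined. The sites of Cox6a2 and Ndufa4l2 are shown in mm10 on the strand of the gene, with bases inside a footprint in both replicates in capitals.
Cox6a2, chr7:128208301-128208480, minus strand: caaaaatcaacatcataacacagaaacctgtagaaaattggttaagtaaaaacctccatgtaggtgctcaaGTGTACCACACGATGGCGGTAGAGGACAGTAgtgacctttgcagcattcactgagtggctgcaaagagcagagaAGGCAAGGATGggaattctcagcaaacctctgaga
Ndufa4l2, chr10:127512921-127513140, plus strand: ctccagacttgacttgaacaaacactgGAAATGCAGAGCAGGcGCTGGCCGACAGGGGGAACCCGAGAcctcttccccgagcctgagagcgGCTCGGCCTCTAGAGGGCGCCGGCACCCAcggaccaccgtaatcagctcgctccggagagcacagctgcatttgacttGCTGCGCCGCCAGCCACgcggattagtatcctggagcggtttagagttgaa
The Ndufa4l2 site held 86 bases footprinted in both replicates out of 220 and the Cox6a2 site 42 of 180. For Cox6a2 this was more than the 0 bases counted in the 180 bases around its start. Those 180 bases were placed by the start and the site by its peak, so the counts are not of like stretches. The promoter peak of Cox6a2 in replicate 1 had its midpoint 96 bp downstream of the start, beyond the stretch shown. The whole promoter window held 6 and 3 footprints.

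**Figure D4:**
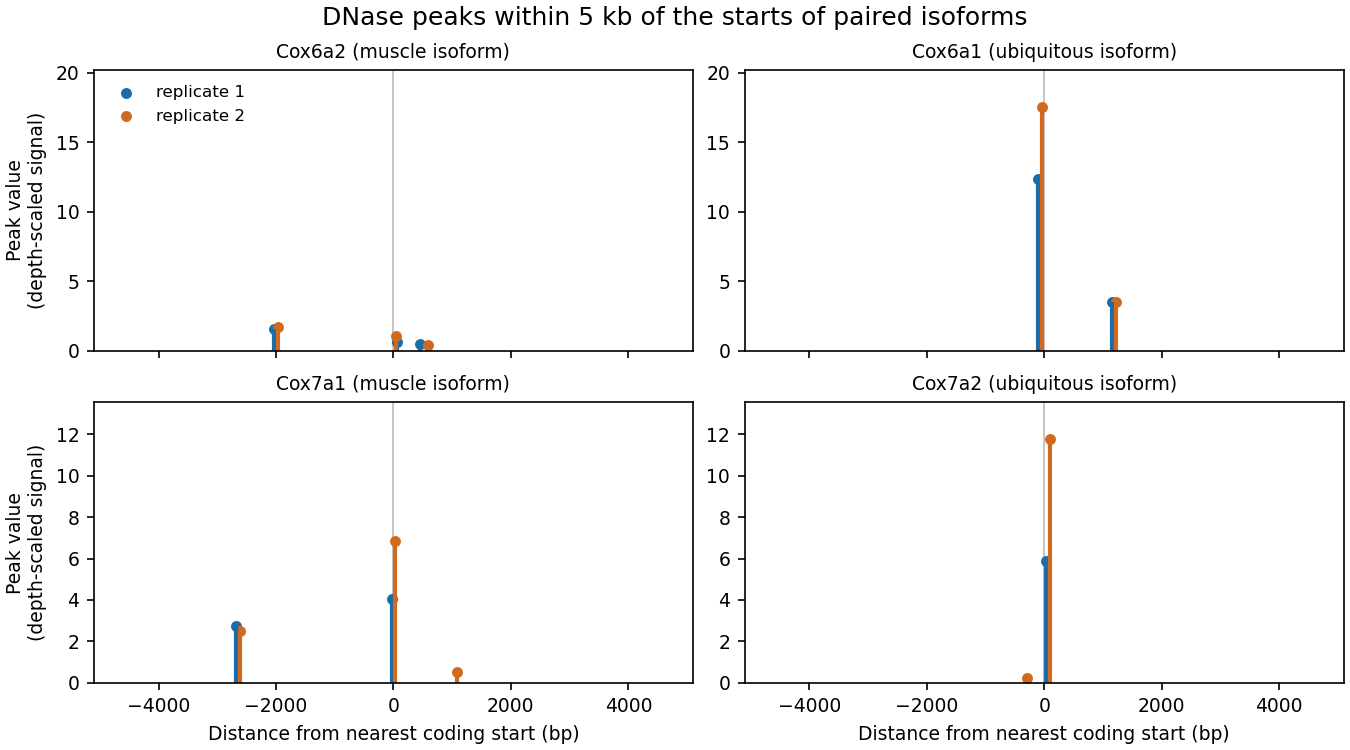
Peak values (depth-scaled signal) by distance from the nearest coding start, within 5000 bp, for the muscle isoforms Cox6a2 and Cox7a1 (left) and their ubiquitous partners (right) in replicate 1 and replicate 2; each row has its own scale. At Cox6a2 the upstream peak stands above the peak at the start, while Cox7a1 has its highest peak at the start like the ubiquitous isoforms.

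In 4 of the 94 genes the promoter had no peak in 1 or both replicates. Besides Cox7b2 and Cox8c, these were Atp5f1 and a second gene annotated as Atp5o. Atp5f1, which encodes the peripheral stalk subunit b, had no peak at either of its annotated coding starts, but a peak of 7.60 and 10.8 lay at chr3:105959201-105959400, 799 bp from the outermost coding start, where transcripts of the gene without a coding sequence start. The second Atp5o, at chr16:91684398-91926982, had a peak of 0.710 in replicate 2 only. The first Atp5o gene, for the oligomycin sensitivity-conferring protein of the stalk, had 4.24 and 8.69. With the starts of all annotated transcripts, Atp5f1 counted as open in both replicates.

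Many respiratory chain genes shared their promoter window with another gene. In 32 of the 94 genes (34.0%) the window held a coding start of another protein-coding gene, beside 11.5% of all genes, and in all 32 a gene on the opposite strand was among them. This was the case for 16 of 38 genes of complex I, 4 of 8 assembly factors, 3 of 4 of complex II, 3 of 8 of complex III, 1 of 18 of complex IV and 5 of 18 of complex V. Among CpG-rich promoters of all genes the share was 18.4%. Atp5j shared its window with Gabpa, the gene for the DNA-binding subunit of GABP. Sdhd shared its window with Timm8b of the mitochondrial import machinery, and Ndufb5 and Ndufs6 shared theirs with the mitochondrial ribosomal protein genes Mrpl47 and Mrpl36. When each peak was counted only for the gene with the nearest coding start, 80 of the 94 genes were open in both replicates, against 13652 of 21853 of all genes. The median value was 6.95 and 10.5 for the genes that shared a window and 6.58 and 10.1 for those that did not, so both sets differed by less than the replicates did.

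The peaks sat close to the annotated starts. The midpoint of the highest promoter peak was within 100 bp of a coding start in 84.4% of the open respiratory chain promoters in each replicate, beside 67.9% and 69.4% of all open promoters. The median offset was 19.5 bp upstream in replicate 1 and 20.5 bp upstream in replicate 2. The open stretch, made of positions listed at an FDR under 0.05 and joined over gaps of up to 150 bp, had a median width of 905.5 and 872 bp at respiratory chain promoters, against 971 and 968 bp at all open promoters. It was 120 and 260 bp at Ndufa4l2, 200 and 205 bp at Cox4i2 and 2507 and 2529 bp at Uqcrh, which shared its window with Lrrc41.

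Footprints were found at nearly all open promoters. In both replicates 90 of the 94 genes had a promoter footprint, beside 64.3% of all genes. Of all genes with a CpG-rich promoter, 11167 of 11770 had one in both replicates, a share close to that of the respiratory chain genes. The median number per open promoter was 6 and 7, against 7 and 7 for all genes. Among the genes with the most footprints, Ndufs1, the largest core subunit, had 13 and 15, and Ndufaf3 had 15 and 13. Of the footprints at respiratory chain promoters in replicate 1, 480 of 639 (75.1%) overlapped a footprint of replicate 2, beside 65.9% over all promoters. In the other direction 472 of 653 (72.3%) did, beside 64.8%. In both directions the share at respiratory chain promoters was above that over all promoters, by less than 10 percentage points.

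Motif letters were searched on both strands from 250 bp before to 50 bp after every coding start. A match only says that the letters are present, and a lack of a match says only that these letters are not in the window. The motifs were NRF1 (GCGCA, any base, GCGC), ETS (CCGGAAG), YY1 (AA, any base, ATGGCG), ERR (AAGGTCA), SP/KLF (GGGCGGG), CRE (TGACGT, any base, A), NFY (CCAAT), ZNF143/THAP11 (ACTACA, any 2 bases, TCCC), the TATA box (TATAAA), the E-box of myogenic factors (CAGCTG) and the MEF2 site. Of 264 matches in the respiratory chain genes, 4 overlapped a match of another motif.

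The NRF1, YY1 and ERR letters were found at a larger share of respiratory chain promoters than of all promoters. NRF1 letters occurred in 22 of 94 genes (23.4%, 95% Wilson interval 16.0 to 32.9%), beside 7.75% of all genes and 13.8% of those with a CpG-rich promoter. YY1 letters occurred in 15 (16.0%, interval 9.92 to 24.7%), beside 4.76% and 7.99%. ERR letters occurred in 18 (19.1%, interval 12.5 to 28.3%), beside 7.57% and 7.03%. For these 3 motifs the interval of the respiratory chain genes lay above the share of either background. The intervals treat the genes as independent draws, so they are a description and not a test. ETS letters occurred in 21 (22.3%), beside 14.8% of all genes and 23.7% of CpG-rich ones, and ZNF143/THAP11 letters in 7 (7.45%), beside 3.13% and 4.66%. SP/KLF letters occurred in 33 (35.1%), beside 40.7% and 62.7%, so that the share was under that of CpG-rich promoters. NFY letters occurred in 43 (45.7%) beside 51.5%, the myogenic E-box in 17 (18.1%) beside 26.0%, TATA in 16 (17.0%) beside 20.8%, CRE in 6 (6.38%) beside 4.97% and MEF2 in 2 (2.13%) beside 3.12% of all genes. The MEF2 matches were at Cox6a2, 23 bp upstream of the start, and at Atp5j.

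**Figure D5:**
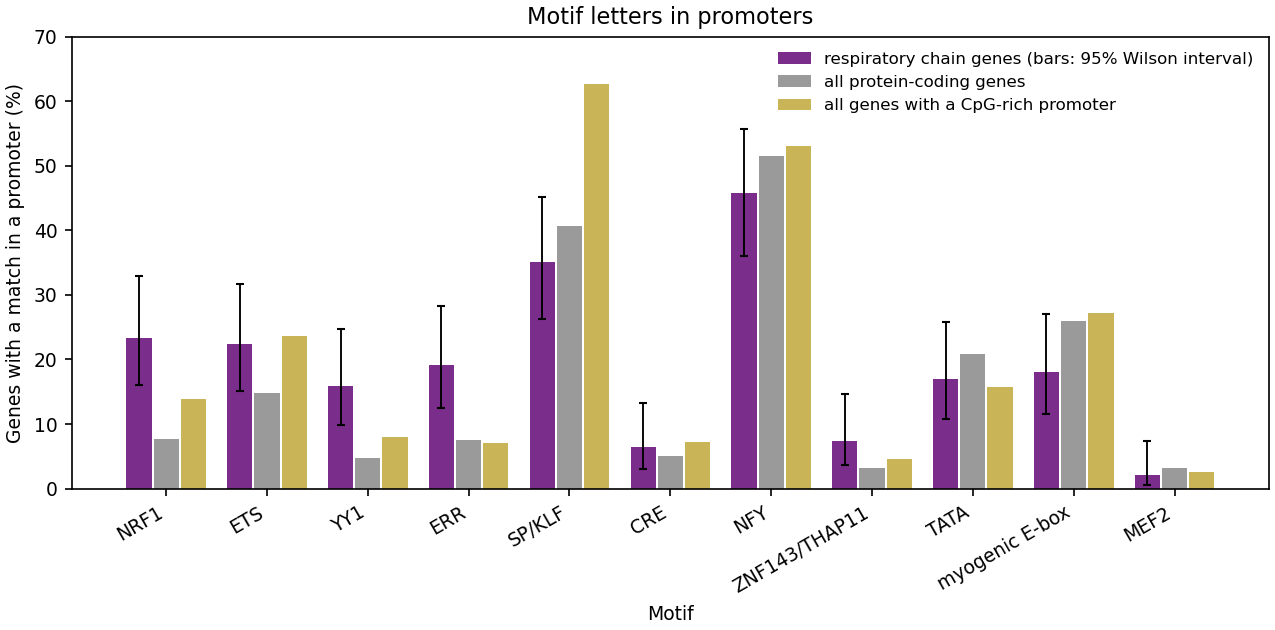
Percentage of genes with each motif's letters in a promoter, for respiratory chain genes (with 95% Wilson intervals), all protein-coding genes and all genes with a CpG-rich promoter. For NRF1, YY1 and ERR the respiratory chain genes stand above both backgrounds, at 23.4%, 16.0% and 19.1%.

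The count of motifs differed between the complexes. NRF1 letters occurred in 9 of 38 genes of complex I, 2 of 8 assembly factors, 2 of 4 genes of complex II, 1 of 8 of complex III, 1 of 18 of complex IV and 7 of 18 of complex V. The match in complex IV was in Cox6a1, which held 2 of them. Of the 27 NRF1 matches, 18 (66.7%) lay wholly inside a footprint in both replicates, beside 62.8% of the NRF1 matches in all promoters, and the median width of these footprints was 22.5 and 23 bp. The 18 lay in 15 genes, among them Sdha, Sdhd, Uqcrc1, Cox6a1, Atp5c1, Atp5g2, Ndufa8 and Ndufaf4. For each complex, and for the assembly factors, the footprinted match nearest to a coding start is shown with 8 bases on each side, in mm10, with the NRF1 letters in capitals.
Ndufa6, chr15:82354251-82354276, plus strand: ttcagcgtGCGCACGCGCggtgccac
Ndufaf5, chr2:140170654-140170679, plus strand: tcccgttgGCGCATGCGCctaataga
Sdha, chr13:74350278-74350303, minus strand: ggcgtgttGCGCAGGCGCagaatctt
Uqcrc1, chr9:108936670-108936695, plus strand: tccgctctGCGCATGCGCagcgcggc
Cox6a1, chr5:115349058-115349083, minus strand: gataaagtGCGCAGGCGCtggagttc
Atp5c1, chr2:10080432-10080457, minus strand: gagctcccGCGCACGCGCactgagtc
The same letters were thus footprinted in 1 gene or more of every complex, at 9 bp upstream of the start in Ndufa6, 10 in Sdha, 32 in Uqcrc1 and 89 in Cox6a1, over the annotated start in Atp5c1, and 17 bp downstream of it in Ndufaf5.

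Coverage of the other motifs was counted in the same way. For every motif, NRF1 included, the background of all promoters also holds promoters without a peak. Of all genes 66.0% were open in both replicates, beside 95.7% of the respiratory chain genes. The part of this difference in the footprinted shares was not tested. ETS matches lay wholly inside a footprint in both replicates in 5 of 25 cases (20.0%, beside 13.6% in all promoters), SP/KLF matches in 19 of 44 (43.2%, beside 27.7%) and NFY matches in 19 of 81 (23.5%, beside 6.94%). The 5 footprinted ETS matches lay in Cox6a1, Ndufaf1, Ndufb9, Ndufs1 and Uqcrh. NFY footprints included those of Atp5b, Atp5g1 and Cox6a1, and SP/KLF footprints those of Sdhb, Ndufv2 and Cox4i1. CRE matches were footprinted in 4 of 6 cases (66.7%, beside 39.0% in all promoters), in Atp5d, Ndufa10, Ndufb2 and Uqcrfs1. The muscle isoforms had no NRF1, ETS or SP/KLF letters in this window. Cox6a2 held a myogenic E-box 82 bp upstream of its start, Cox8b held 2, at 16 bp upstream and 19 bp downstream, and Cox7a1 held NFY letters at 45 and 108 bp upstream. None of these matches lay inside a footprint in both replicates.

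YY1 letters were concentrated in complex I, with 11 of 38 genes, and absent from the 18 genes of complex IV. They contain the bases ATG, and in 10 of the 15 genes (66.7%) this ATG was the annotated start codon, beside 317 of the 1041 genes with YY1 letters in all (30.5%). They included Ndufa2, Ndufa6, Ndufa9, Ndufc1, Ndufs4, Ndufs6, Ndufs7, Uqcrc1 and Atp5j2. For 8 of them the stretch is shown on the strand of the gene in mm10, with 8 bases on each side of the letters in capitals.
Ndufa6, chr15:82354215-82354239, minus strand: tcctcggcAAGATGGCGgccgcggc
Ndufa9, chr6:126849099-126849123, minus strand: tgtgggagAAGATGGCGgccgccgt
Ndufc1, chr3:51408917-51408941, minus strand: tgcggaacAAGATGGCGccgtccgt
Ndufs4, chr13:114388043-114388067, minus strand: cctacaggAAGATGGCGgcggtctc
Ndufs6, chr13:73328433-73328457, minus strand: tcaccggcAAGATGGCGgcggtgct
Ndufs7, chr10:80249465-80249489, plus strand: ccgaggccAAGATGGCGgcgctggc
Uqcrc1, chr9:108936708-108936732, plus strand: gaagttagAAGATGGCGgcgtccgc
Atp5j2, chr5:145191502-145191526, minus strand: aggacttcAAGATGGCGtcactcgg
In each line the ATG inside the capitals is the start codon, and in all 8 the third base of the capitals is G. Only 1 of the 15 YY1 matches, that of Ndufc1, lay wholly inside a footprint in both replicates (6.67%, beside 13.4% of the YY1 matches in all promoters). The shared letters therefore include coding sequence, and their part in binding and in encoding the first residues cannot be told apart here.

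ERR letters were most frequent in complex V, with 8 of 18 genes, beside 6 of 38 in complex I, 0 of 8 assembly factors, 1 of 4 in complex II, 1 of 8 in complex III and 2 of 18 in complex IV. Those of complex V lay within 61 bp of a coding start. For 7 of these genes the match is shown in mm10 on the strand on which it reads as spelled, with 8 bases on each side and the ERR letters in capitals.
Atp5c1, chr2:10080168-10080190, minus strand: aagagaacAAGGTCAcggtctga
Atp5e, chr2:174464063-174464085, plus strand: gcagcaggAAGGTCAggcctgag
Atp5g3, chr2:73911364-73911386, plus strand: agacgctcAAGGTCActttgtaa
Atp5h, chr11:115418764-115418786, plus strand: caaagttcAAGGTCAcatgagag
Atp5l, chr9:44920741-44920763, plus strand: ccatttccAAGGTCAggctgccc
Atp5mpl, chr12:111966967-111966989, plus strand: gaatgggaAAGGTCAcagagcac
Atp5o, chr16:91931324-91931346, plus strand: tggatgtcAAGGTCAagacagag
None of the ERR matches of complex V lay wholly inside a footprint in both replicates. In the other complexes 2 did, in Ndufs1, 221 bp upstream of the start, and in Uqcrq, 121 bp upstream. Over the respiratory chain genes this was 2 of 19 matches (10.5%), beside 1.27% of the ERR matches in all promoters, open or not.

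The genes that serve the respiratory chain without matching these symbols had promoters of the same kind. Of 45 listed genes for cytochrome c, cytochrome c1 and the assembly of the complexes, 43 (95.6%) were open in both replicates. The share was 66.0% for all genes and 95.9% for all genes with a CpG-rich promoter. Of the 45 listed genes, 40 (88.9%) were CpG-rich. The median value of the listed genes was 7.58 and 11.0. Cycs, the somatic cytochrome c, had 13.6 and 18.3, while Cyct, the cytochrome c of testis, had a peak of 0.310 in replicate 1 only. Cyc1, the haem subunit of complex III, had 3.55 and 6.80. Sdhaf1, an assembly factor of complex II, had no promoter peak in either replicate. The somatic and testis forms of cytochrome c thus differed in the same direction as the isoforms of complex IV.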

How the data were processed

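Peaks, footprints and per-position false discovery rates (FDR) are specific to each library, made from alignments to mm10 per the file headers and the deposited notes, with no pooling of replicates. The aligner and callers are not named in the sources used here. The peak signal is deposited by the authors scaled to library depth: in each library 100% of values were whole multiples of a step, 0.00544 and 0.00587, within 0.05 of a step. The FDR, a p-value type of number deposited by the authors, is listed per position under 0.05. Footprints carry the deposited value 0.01 on every line, so only positions were used. Of the 2 peak sets the wider was used.

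The genes, lists and motifs were chosen with earlier results of these data known. Genes named are those of the isoform pairs, the 2 highest and 2 lowest of each complex, those without a peak, the 3 largest and smallest replicate ratios and the 3 with the most footprints. Some genes and sites that the rule selects are not reported here. Genes outside this rule are named as examples, chosen after their values were seen. In all, 85 protein-coding genes without a coding transcript were left out. Overlaps needed 1 bp. Sequence came from the RefSeq GRCm38 assembly, matching mm10, and alleles of the CAST parent were not analysed here. Python 3.11.15, pandas 2.3.3, NumPy 2.4.6, SciPy 1.17.1, pysam 0.24.0 and bedtools 2.31.1 were used. Overlap and motif functions were tested on simulated data. Alternatives were another window, peak set, start set, overlap rule and motif window, and each replicate left out.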

Additional observations from a re-analysis of the deposited data

How the results depend on the processing

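No paired analysis was possible because there was 1 group of 2 libraries. The number of respiratory chain genes open in both replicates, 90 as reported, was 80 when each peak counted only for the nearest gene, 87 in the stricter peak set, 89 with peaks above the library median, and 90 or 91 under the other settings. Without replicate 1 or 2, the count was 90 to 91 and the median promoter value 6.63 to 10.5. The log2 ratio of isoforms kept its sign in all settings that gave one. With the sum of promoter peaks it was -3.53 for Cox6a2, -3.10 for Cox4i2, -0.48 for Cox6b2 and -3.15 for Ndufa4l2. In the stricter peak set Cox4i2 and Ndufa4l2 had no ratio, since the restricted isoform lacked a peak in 1 or both replicates. With 500 bp on each side of a start, motif letters were found in 35.1% of the genes for ETS (23.5% of all genes), 30.9% for YY1 (7.94%), 48.9% for ERR (22.5%), 54.3% for SP/KLF (52.7%), 69.1% for NFY (80.6%), 37.2% for TATA (45.4%) and 40.4% for the myogenic E-box (54.3%). The SP/KLF share was then above that of all genes. From 100 bp before to 50 bp after a start the share was 31.9% for NFY, 6.38% for TATA and 10.6% for the myogenic E-box. Over all genes the shares in this shorter window were 34.95%, 11.5% and 16.8%. The open stretch averaged 723 bp (790 bp at all open promoters) at an FDR under 0.001 and 845 bp with no gap joined, which by construction list fewer bases. Depth limits the lowest promoters most: that of Cox6a2 rested on 110 tags in replicate 1 and 186 in replicate 2, beside medians of 1218.5 and 1789 for the respiratory chain genes.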

Other observations

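Among respiratory chain genes that were not CpG-rich, several outside the isoform pairs had high promoter values. Ndufb7, an accessory subunit of complex I with a CpG ratio of 0.51, had 9.84 and 11.8, and Ndufaf6, an assembly factor with a ratio of 0.598, had 10.6 and 11.0. These were chosen after their values were seen. Cidea, listed as a brown adipocyte marker, had a promoter peak of 2.70 and 2.25, while Ucp1, the uncoupling protein that defines that cell type, had 0.315 in replicate 1 only and Adipoq had none.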
